A study of Drosophila pseudoobscura with 4 samples.

Results

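The microRNAs dps-mir-318 and dps-mir-994 of *Drosophila pseudoobscura* are annotated as neighbors on chromosome 2, and were taken from the count tables by name. They are 2 of the 231 microRNAs counted. The study compared microRNA expression between the sexes in total RNA of adult females and males, for which no dissection is named, with 2 female and 2 male small RNA libraries. Both sexes came from a wild-derived stock reared at 18 °C under 12 h of light daily, were collected at 7 days of age, and no treatment or transgene is named for either. The study's account describes the females as virgins, which the labels do not state. The number of animals behind each library is not given in the sources used here. Libraries are named below as Female_1, Female_2, Male_1 and Male_2. By the study's account each sequencing run held a library of each sex. The replicate number is taken below as the run, which the labels do not state.

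A microRNA is cut from a hairpin precursor and guides an Argonaute protein to messenger RNAs, chiefly through bases 2 to 8 of its mature strand, the seed. In *D. melanogaster*, mir-318 is expressed in the follicle cells of the ovary, the somatic epithelium that surrounds each egg chamber and makes the eggshell, and it acts there in eggshell patterning and in the amplification of chorion genes. There its mature product has the same seed as those of mir-3 and mir-309, which belong to a cluster transcribed in the early embryo. In that species mir-994 is its close neighbor, and microRNAs this near to each other are commonly cut from a shared primary transcript. The study also compared published ovary and testis libraries of *D. pseudoobscura*, which were not used here. The files used here hold no ovary library, so the ovarian origin known from *D. melanogaster* is background. In bulk RNA, more cells of a type and more RNA per cell cannot be told apart.

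The precursor of dps-mir-318 lies on chromosome 2 of the assembly UCI_Dpse_MV25 from 7628026 to 7628093, and that of dps-mir-994 from 7628178 to 7628284. The annotated precursors are 68 and 107 bases long, with 84 bases between them. Both lie between genes, because no RefSeq gene span overlaps the 259 bases from the start of the one to the end of the other. On the side of dps-mir-318, 212 bases away, ends the span of Irp-1B, the gene of an iron regulatory protein, which runs from 7623548 to 7627813. On the side of dps-mir-994, the protein-coding gene LOC4801023 starts 1028 bases away and runs from 7629313 to 7632866. Strand and exons are not in the table used, and the mature sequences were not analysed here.

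**Figure D1:**
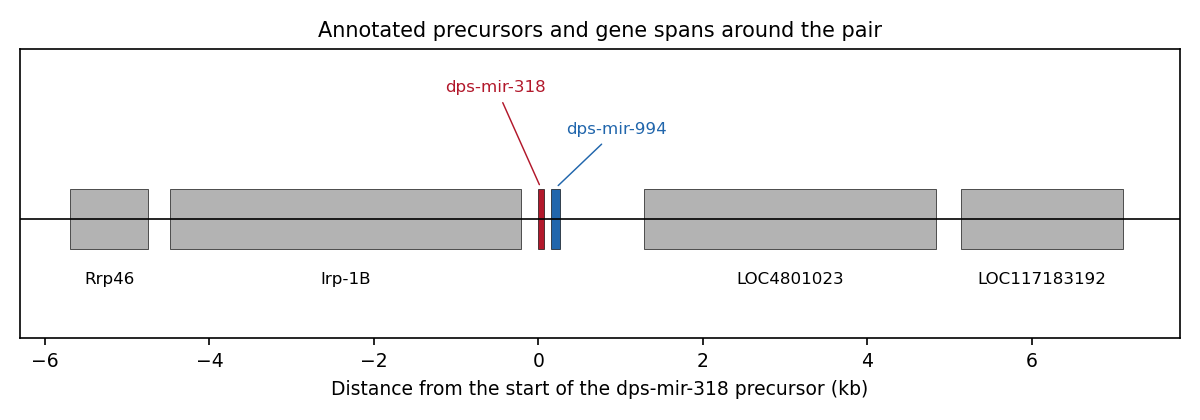
Map of the locus, with the distance in kb from the start of the dps-mir-318 precursor on the x axis. Colored boxes are the precursors of dps-mir-318 and dps-mir-994, separated by 84 bases, and gray boxes are RefSeq gene spans, of which none overlaps the pair.

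The libraries held 7111 and 42754 microRNA reads in females and 5697 and 67076 in males, in which 68, 104, 71 and 123 microRNAs had at least 1 read. These totals count reads on annotated precursors only. A level of 3 reads, taken as the smallest that a library could show, was 0.0422% and 0.00702% of the female libraries and 0.0527% and 0.00447% of the male ones. The largest share of any library, from 25.4% to 31.2%, belonged to dps-mir-8. Intervals below are exact binomial (Clopper-Pearson) 95% intervals, and they cover counting error only, because reads without molecular identifiers are not independent molecules.

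Both microRNAs had many reads in females and close to none in males. The reads of dps-mir-318 numbered 287 in Female_1 and 3102 in Female_2, against 2 in Male_1 and 5 in Male_2. The female counts are 4.04% of the reads of Female_1 (interval 3.59 to 4.52%) and 7.26% of those of Female_2 (7.01 to 7.51%). In males the same microRNA took 0.0351% of Male_1 (0.00425 to 0.127%) and 0.00745% of Male_2 (0.00242 to 0.0174%). Every female value of dps-mir-318 lay far above every male value, and the intervals of the sexes do not overlap. In Male_1 its 2 reads are below the floor of 3.

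The reads of dps-mir-994 numbered 48 in Female_1 and 369 in Female_2, against 0 in Male_1 and 1 in Male_2. They made up 0.675% of Female_1 (interval 0.498 to 0.894%) and 0.863% of Female_2 (0.778 to 0.955%). The single male read is 0.00149% of Male_2, and for the 0 of 5697 reads in Male_1 the floor of 3 reads stands at 0.0527%, with an upper end of the exact interval of 0.0647%. Again the female libraries do not overlap the male ones, although at this depth the male level of dps-mir-994 was under the floor in both libraries. Of the 84 tested microRNAs, 10 had both female libraries above both male libraries in CPM with TMM factors, which is 11.9%, the members included.

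**Figure D2:**
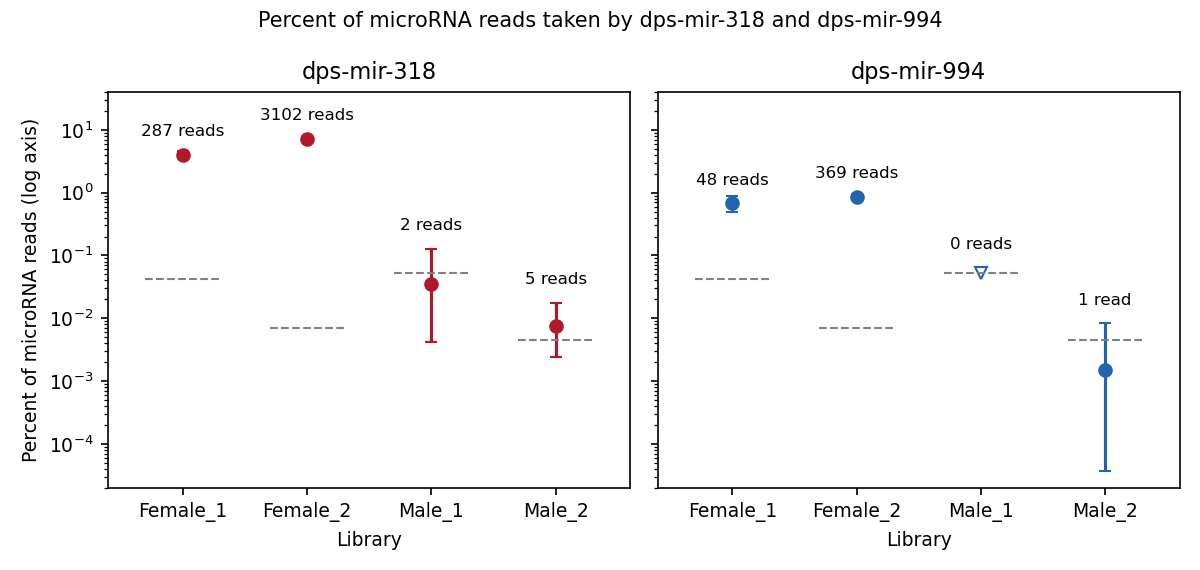
Percent of microRNA reads taken by dps-mir-318 (left) and dps-mir-994 (right) in each library, on a log axis, with the number of reads above each point. Bars are exact 95% binomial intervals, dashes mark 3 reads, and the open triangle stands for 0 reads of dps-mir-994 in Male_1; the female points, from 0.675 to 7.26%, are all above the male ones.

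Together the neighbors took 4.71% of Female_1 and 8.12% of Female_2, or 335 and 3471 reads, against 0.0351% of Male_1 and 0.00895% of Male_2, or 2 and 6 reads. As a mean over libraries, dps-mir-318 held 5.65 ± 2.28% of female reads and dps-mir-994 0.769 ± 0.133% (SD, n = 2 each). The corresponding male means were 0.0213 ± 0.0196% and 0.000745 ± 0.00105%. The spread between the female libraries was thus wider for dps-mir-318, whose share was 1.80 times as large in Female_2 as in Female_1, than for dps-mir-994, with 1.28 times. Scaled with TMM factors, the female levels of dps-mir-318 were 47168 and 56547 CPM, and those of dps-mir-994 were 7889 and 6727 CPM. By the share of reads Female_2 was therefore the higher library for dps-mir-994, and by CPM with TMM factors the lower one, so the scaling sets the order of the female libraries for this microRNA. The male levels on the same scale were 398 and 72.4 CPM for dps-mir-318, and 0 and 14.5 CPM for dps-mir-994.

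By rank, dps-mir-318 was among the most abundant microRNAs of the female libraries. It ranked 6th of 68 detected microRNAs in Female_1, between dps-mir-14 with 397 reads and dps-mir-263a with 279. In Female_2 it ranked 4th of 104, below dps-mir-276a with 3434 reads and above dps-mir-263a with 1786. The interval of dps-mir-318 in Female_1 includes the share of dps-mir-263a there, so that their order is within counting error, while in Female_2 it does not. In males, dps-mir-318 shared ranks 48 to 54 of 71 in Male_1 with the other microRNAs at 2 reads, and ranks 79 to 81 of 123 in Male_2.

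Its neighbor dps-mir-994 stood lower in the female order. In Female_1 it tied at ranks 14 to 15 with dps-mir-306, below dps-mir-33 with 61 reads and above dps-mir-11 with 47. In Female_2 it was 18th, below dps-mir-305 with 688 reads and above dps-mir-12 with 277, with no other microRNA inside its counting interval. The single read in Male_2 put it at ranks 106 to 123, the last shared ranks of that library, and it was not among the 71 detected microRNAs of Male_1.

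**Figure D3:**
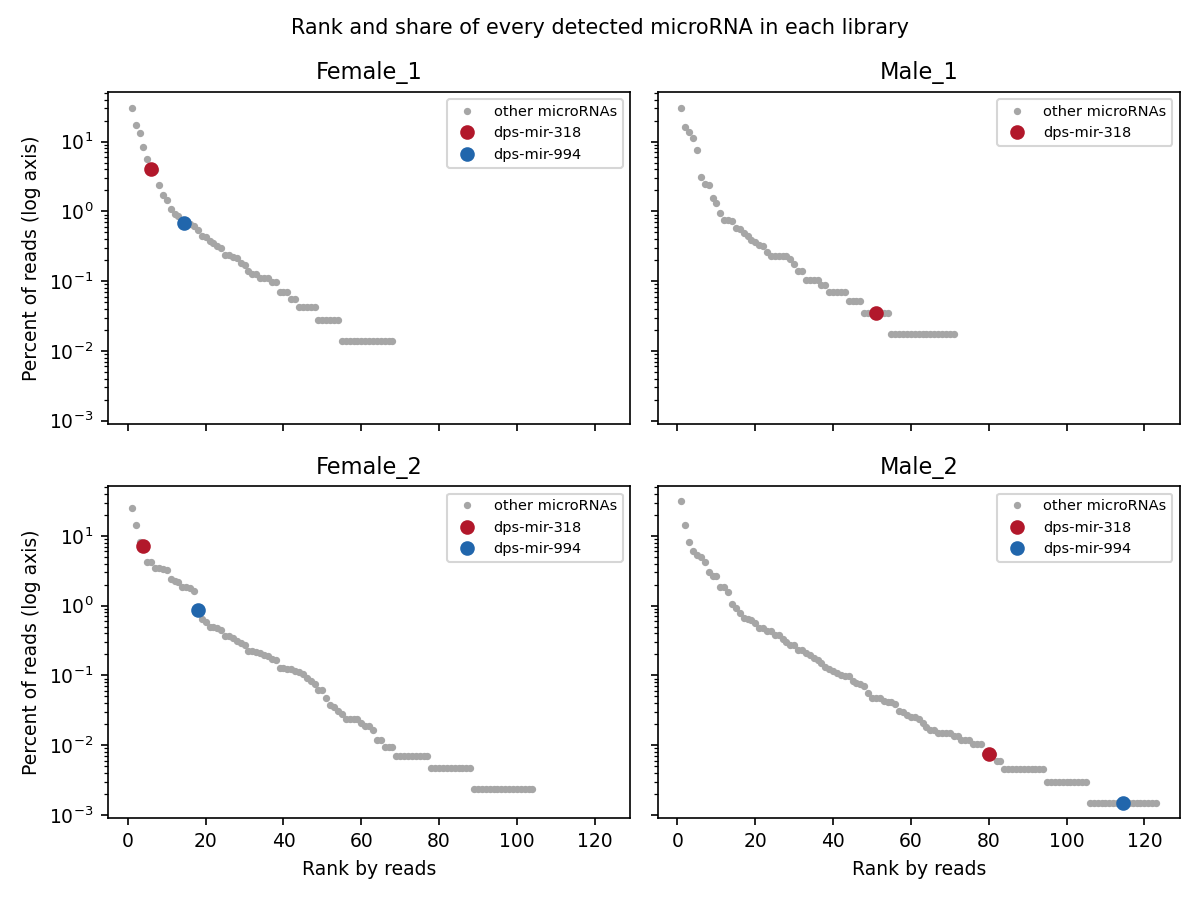
Percent of reads (log axis) against rank for every detected microRNA, with females on the left, males on the right, and the first run above the second. The colored points show dps-mir-318 at ranks 6 and 4 and dps-mir-994 near ranks 14 and 18 in females, whereas in males both lie among microRNAs with few reads.

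To test the difference between the sexes, edgeR's quasi-likelihood test was fitted to the counts of all 84 tested microRNAs, modelled on run and sex. A microRNA was called at a false discovery rate (FDR) under 10% and a difference of at least 25%. Both members were called higher in females, where 6 of the 84, or 7.14%, were called in that direction. The log2 fold change of dps-mir-318, female over male, was 8.82 (standard error 0.93, adjusted p = 0.00704 by Benjamini-Hochberg), and that of dps-mir-994 was 8.65 (standard error 0.73, adjusted p = 0.00704). These are the 2 largest female-biased fold changes of the test, and the members were picked with that known. The fitted value of dps-mir-994 rests on a single male read and moves with the prior count, the small number added before taking logs. It was 6.59 with a prior count of 2 in place of 0.125, against 8.20 for dps-mir-318. The median log2 fold change of all tested microRNAs was -0.46 with TMM and -0.09 with DESeq2's size factors, and dps-mir-318 lay 9.29 and 9.34 above it, dps-mir-994 9.11 and 9.12. The calls depended on the male libraries. Without Male_2, in edgeR fits that leave out the run, the log2 fold changes were 6.98 and 10.34 and the adjusted p was 0.170 for both, and without Male_1 it was 0.157 for dps-mir-994 and 0.000117 for dps-mir-318.

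Within each run the same difference can be read from the library of each sex alone. The share of dps-mir-318 in Female_1 was 115 times that in Male_1 (interval of the ratio 31.5 to 954), and in the second run it was 973 times (417 to 3000). The estimates differ, but their intervals overlap, since 2 and 5 male reads fix the ratio poorly. For dps-mir-994, Female_1 was 12.8-fold higher than Male_1 with the 0 reads of Male_1 taken as the floor of 3. From the counts themselves, the interval of this ratio has a lower end of 10.03 and no upper limit. In the second run the ratio was 579 (103 to 22927) and depends on the single male read. Had males held the pair at the share of the females of their run, Male_1 would have had 230 reads of dps-mir-318 and 38.5 of dps-mir-994, and Male_2 4867 and 579.

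The same ratio was computed for every microRNA with at least 10 female reads in a run, 31 of them in run 1 and 59 in run 2, with male counts below 3 raised to 3. In each run dps-mir-318 came first and dps-mir-994 second. This order is a description, because the members were picked with their female bias known and passed the filter through their female reads. The filter also leaves microRNAs with few female and more male reads out of the order and the medians. An example is dps-mir-2552, with 0 and 2 reads in females and 33 and 253 in males. In run 1 dps-mir-318 and dps-mir-994 stood at 76.6 and 12.8, followed by dps-mir-9b with 8.01, a member of the mir-9 family. There the male counts of dps-mir-994 and dps-mir-9b, 0 and 2, were both raised to 3. Their order in run 1 is therefore only that of their female reads, 48 and 30. In run 2 dps-mir-318 and dps-mir-994 stood at 973 and 193, followed by dps-mir-92b with 26.9. The medians of the others were 1.05 in run 1 and 0.814 in run 2.

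**Figure D4:**
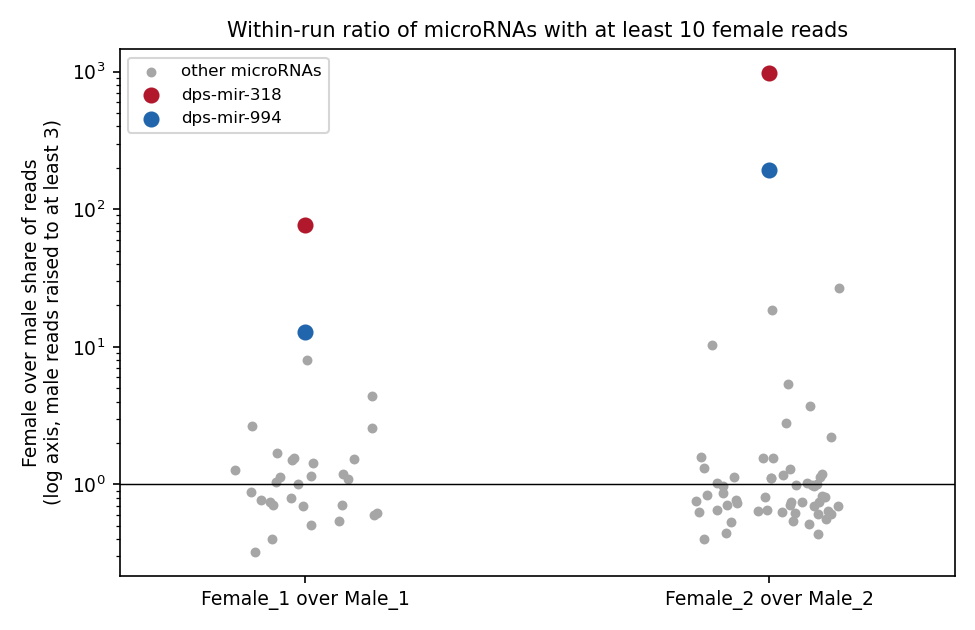
Female over male ratio of read shares (log axis) within each run, for microRNAs with at least 10 female reads, with male counts below 3 raised to 3. Gray points are other microRNAs, with medians of 1.05 and 0.814; dps-mir-318 at 76.6 and 973 and dps-mir-994 at 12.8 and 193 are the highest points of each run.

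The pair also carried much of the difference in composition between the sexes. In run 1, 37 microRNAs took a larger share of the female library than of the male one, by 12.8 percentage points in all, and dps-mir-318 and dps-mir-994 made up 36.4% of this sum. In run 2, 50 microRNAs exceeded their male share by 18.0 points in all, of which the pair made up 45.1%. The excess of dps-mir-318 was the largest of any microRNA in both runs, 4.001 and 7.248 points, followed by dps-bantam with 2.13 points in run 1 and dps-mir-92b with 3.24 in run 2. That of dps-mir-994, 0.675 and 0.862 points, was the 6th largest in each.

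The ratio of the neighbors was then compared, since a ratio of counts within a library depends neither on its depth nor on the scaling. Female_1 had 5.98 reads of dps-mir-318 for each read of dps-mir-994 (interval 4.39 to 8.30) and Female_2 had 8.41 (7.54 to 9.39). The geometric mean was 7.09 and the SD of the ratios 1.72 (n = 2). By Fisher's exact test (two-sided), the reads of the pair differed between Female_2 and Female_1 at p = 0.0436, or 0.175 after Benjamini-Hochberg adjustment over 4 comparisons of libraries, so that a difference between these libraries did not pass. This is a ratio of reads, not of molecules. Per base of annotated precursor it was 11.2, which is not an estimate of the ratio of molecules either.

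The few male reads had a ratio like that of females, within a very wide error. Male_2 had 5 reads of dps-mir-318 and 1 of dps-mir-994, a ratio of 5 (interval 0.559 to 236), and Male_1 had 2 and 0. Summed by sex, the ratio was 8.13 in females (7.34 to 9.02) and 7.00 in males (0.899 to 315), with 3389 and 417 reads against 7 and 1. Fisher's exact test of these sums gave p = 0.605 (0.807 after adjustment over the 4 comparisons), which with 8 male reads does not show that the ratios are alike. At the female ratio, 7 male reads of dps-mir-318 would go with 0.861 reads of dps-mir-994, where 1 was counted.

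**Figure D5:**
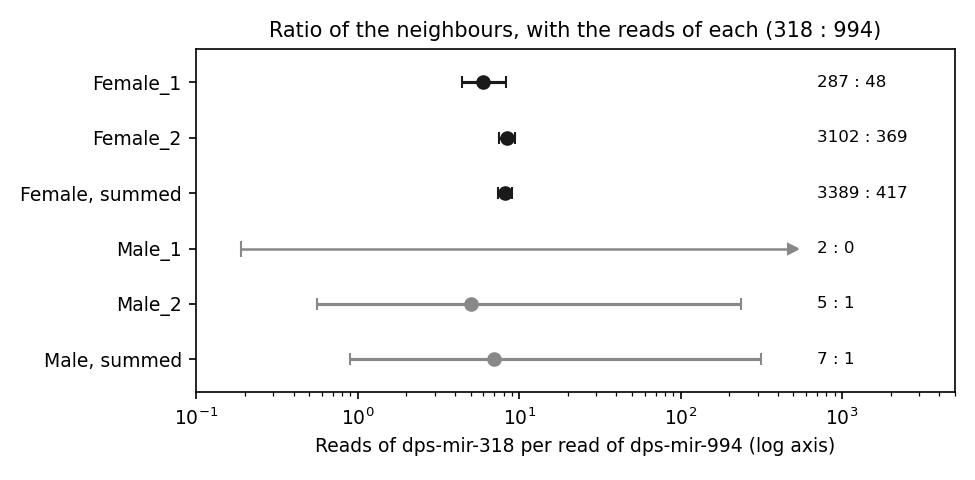
Reads of dps-mir-318 per read of dps-mir-994 (log axis) in each library and summed by sex, with exact 95% intervals and the read numbers at the right; the arrow marks an interval without an upper limit. The female ratios are 5.98 and 8.41, and the male intervals, from 8 reads in all, cover both.

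The remaining male reads were few in proportion to those of the female library taken to share their run. For dps-mir-318 the male share was 0.870 per 100 of the female share in run 1 and 0.103 in run 2, and for dps-mir-994 it was 0.173 in run 2. Each run held both sexes, and whether reads passed from the female to the male library of a run was not tested. Testis-linked microRNAs were looked at beside them. Of the 5 microRNAs listed as testis-linked from *D. melanogaster*, the mir-959 to mir-964 cluster, 4 were in the tables. They had 0 reads in both female libraries and 2 and 19 reads in Male_1 and Male_2, with dps-mir-2563 at 0 in all 4 libraries. Of the 4, 2 were tested, and 0 were called in either direction. Over all tested microRNAs, 7.14% were called higher in females and 5.95% in males. The highest count was 9 reads, of dps-mir-2509 in Male_2, while in Male_1 dps-mir-2509 and dps-mir-964 had 1 read each, under the floor of 3.

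Other microRNAs tied to the ovary or the early embryo in *D. melanogaster* were counted from lists. Of 10 ovary-linked microRNAs all were in the tables and 8 were tested, of which 2 were called higher in females and 0 in males, where 7.14% and 5.95% of all tested microRNAs were called in these directions. Their median log2 fold change was 1.01, against -0.46 over all tested microRNAs, and their values ran from -0.48 for dps-mir-278 to 3.73 for dps-mir-989. The untested dps-mir-311 had 0 reads in both females and 0 and 4 in males, and dps-mir-79 had 0 and 1 against 0 and 3. The listed dps-mir-9c and dps-mir-306 are neighbors 533 bases apart, and dps-mir-9b is a paralog of dps-mir-9c, so the listed microRNAs are not all independent. Apart from these and dps-mir-989, the tested ones were at 0.53 (dps-mir-184), 0.01 (dps-mir-7), -0.03 (dps-bantam) and -0.48 (dps-mir-278). Both calls thus came from this related group, and whether dps-mir-9b and dps-mir-79 share its locus was not examined. The called ones were dps-mir-9b, with a log2 fold change of 2.49 (edgeR, adjusted p = 0.0537), and dps-mir-306, with 1.501 (adjusted p = 0.0971). These calls were known when the list was made. The microRNA dps-mir-989, whose ortholog is expressed in ovarian follicle cells and acts in border cell migration, had 1 and 2 reads in females and 0 in both males, at or under the floor in every library. The growth regulator dps-bantam, which maintains germline stem cells in *D. melanogaster*, had 13.3 and 14.1% of female reads and 11.1 and 14.3% of male reads, and was not called (log2 fold change -0.03, adjusted p = 0.990). Of the mir-309 cluster, which promotes the clearance of maternal messenger RNA in early *D. melanogaster* embryos and holds the microRNAs with the seed of mir-318, 4 of 8 members were in the tables. They had 0 reads in both females and 3 in the males, and dps-mir-309 itself was at 0 in all 4 libraries.

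Markers of muscle and of the nervous system were also read beside the pair. Of 2 listed muscle microRNAs only 1, dps-mir-133, was in the tables, and dps-mir-1 was not. The share of dps-mir-133 was 0.0422 and 0.117% of female reads and 0.105 and 0.270% of male reads, with 3 reads in Female_1 and 6 in Male_1. It was called higher in males (log2 fold change -1.46, edgeR, adjusted p = 0.0699), as were 5.95% of all tested microRNAs. Of 3 listed nervous system microRNAs 2 were tested and 0 were called, with 0.0844 and 0.133% of female reads and 0.0878 and 0.201% of male reads in sum, and dps-mir-137 was at 0 in every library. Their part in the difference of the pair was not tested.

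In their profile over the 4 libraries, the neighbors were closer to each other than to any other tested microRNA. The measure was the root mean square difference of centered log2 CPM, which was 0.90 between dps-mir-318 and dps-mir-994. The next 3 were the same for each of them, dps-mir-92a at 2.26 from dps-mir-318 and 1.55 from dps-mir-994, dps-mir-92b at 2.36 and 1.93, and dps-mir-9b at 2.72 and 2.06. The medians over the 82 other tested microRNAs were 4.15 and 3.64. Reads of the copies dps-mir-92a and dps-mir-92b, and of dps-mir-9b and its paralog dps-mir-9c, may be shared out uncertainly, being similar in sequence. The closest microRNA, dps-mir-92a, had 7 and 83 reads in females and 0 and 7 in males. With 4 libraries the measure reflects mainly the contrast between the sexes, and it is given as a description.

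Of the nearest other microRNAs on the chromosome, only the 3 on the lower side were tested, and they were not called. Over all tested microRNAs, 7.14% were called higher in females and 5.95% in males, so the lack of a call among so few says little about the region. On the lower side, dps-mir-995 lies 1408 kb away and dps-mir-317 and dps-mir-277 about 2302 and 2312 kb away. Of these, dps-mir-995 had 17 and 795 reads in females and 42 and 446 in males, with a log2 fold change of -0.02 (edgeR, adjusted p = 0.990). For dps-mir-317, a microRNA of the ageing cluster with mir-277 and mir-34, it was 0.25 (adjusted p = 0.873), and for dps-mir-277, which regulates the breakdown of branched-chain amino acids in *D. melanogaster*, it was -0.98 (adjusted p = 0.221). On the higher side, dps_87, dps-mir-2c and dps-mir-13a, from 1308 to 2557 kb away, had at most 9 reads in a library and were not tested.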

How the data were processed

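The authors trimmed adapters, mapped the reads to the genome with HISAT2 and counted them on annotated precursors with featureCounts, and microRNAs matching more than a single region exactly were left out. They deposited raw read counts for 231 microRNAs per library, not normalized. A blank last line was dropped from each table. The arms of a precursor are counted together, so the counts do not tell mature strands apart. Depth ran from 5697 to 67076 reads.

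Libraries were grouped by sex from their labels. Following the study, the model was run + sex. The test took microRNAs whose base mean in DESeq2 reached 1, a limit the study set for its comparisons of fold changes, and reads in both sexes were not required here. The run was taken from the replicate number, as the study paired 1 male and 1 female library per run. The changes from run 1 to run 2 in females and in males correlated over the 84 microRNAs (Pearson r = 0.567). Both libraries of run 1 were shallower than both of run 2, so this correlation cannot tell a shared run from depth. Counts were tested with edgeR 4.0.16 in R 4.3.3 (TMM, quasi-likelihood), with limma 3.58.1 and DESeq2 1.42.0 as alternatives. Standard errors are the log2 fold change over the square root of F. Intervals and Fisher's exact tests used SciPy 1.17.1. The edgeR test and the intervals of ratios were run on simulated data, and Fisher's exact test was not. The edgeR simulation held smaller changes than those of the pair, in microRNAs above the median level. The simulation of the intervals had counting error only. P-values of edgeR measure the spread between these libraries. The study calls them biological replicates, and does not state whether they came from separate cultures. Those of Fisher's exact test compare reads of libraries and cover counting error only.

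The members, the lists and the rule for named microRNAs were chosen with earlier results of these data known. Named were the members, their neighbors in the order of female reads, the 3 most alike in profile, the 3 nearest on each side of the chromosome, and the listed microRNAs. The rule also asked for microRNAs with a shared seed, which needs mature sequences and was not done. Positions are those of the study's supplementary table, which holds 224 of the 231, and gene spans are RefSeq's for UCI_Dpse_MV25.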

Additional observations from a re-analysis of the deposited data

How the results depend on the processing

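The female bias of dps-mir-318 kept its direction in 12 of 12 alternatives (log2 fold change 6.98 to 9.76) and its call in 11, and that of dps-mir-994 in 12 of 12 (6.59 to 10.34) and 10. The adjusted p ran from 9.94e-27 to 0.170 for dps-mir-318 and from 9.12e-13 to 0.170 for dps-mir-994. With no replicate block, so without the pairing by run, the values were 8.48 and 8.76 (adjusted p = 0.0116 for both, edgeR). The lost calls were those without Male_2 for both and without Male_1 for dps-mir-994, where the lone male library was assumed to vary like the female ones. Leaving out a library, in fits without the run, gave 6.98 to 9.76 for dps-mir-318 and 8.97 to 10.34 for dps-mir-994. Calls higher in females, 6, were 0 to 4 when a library was left out, and those higher in males, 5, were 0 to 1. With no replicate block they were 4 and 5. The male-biased calls were 9 with DESeq2, 2 with limma-voom, 9 with total counts only and 3 with edgeR's expression filter, and the cause was not tested. The share of dps-mir-994 in females was 1.06% when the reads of dps-mir-8 were left out of the total, because the total is then smaller. The prior count of 2 and the ratio per base of precursor (11.2) were added after seeing the data. Depth limits the male levels, which rest on 8 reads.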

Other observations

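Among the annotated microRNAs with a position, 6 adjacent pairs within 1000 bases of each other had at least 10 reads of each member in Female_2. The ratio of the more to the less abundant neighbor there ran from 3.69 for dps-let-7 over dps-mir-125 to 10.5 for dps-mir-281-2 over dps-mir-281-1, similar copies whose reads could have been split by the counting. The ratio of dps-mir-318 to dps-mir-994, 8.41, was the third highest. Between the female libraries it differed 1.41-fold, close to the 1.63-fold of dps-let-7 over dps-mir-125 and the 1.71-fold of dps-mir-281-2 over dps-mir-281-1. That of dps-mir-277 over dps-mir-34 differed 15.97-fold (73.6 in Female_1 and 4.61 in Female_2), that of dps-mir-9c over dps-mir-306 12.3-fold (0.667 and 8.23) and that of dps-mir-305 over dps-mir-275 5.73-fold (1.67 and 9.56). The limits on pair distance and reads were chosen after seeing the data, several of these ratios rest on fewer than 20 reads in Female_1, and no test was made.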
